A study of Mus musculus with 20 samples.

Results

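UBE3A is an E3 ubiquitin ligase, an enzyme that tags other proteins with ubiquitin, and its level in neurons is set almost entirely by the maternal copy of *Ube3a*. Proteins that it tags are in many cases passed to the proteasome and destroyed, so a substrate can change in amount while its mRNA stays as it was. The mRNA of a reported substrate is therefore a separate readout from the protein, and only mRNA was measured here. Transcripts of 7 genes whose proteins have been reported as substrates or partners of UBE3A were taken by symbol from the 47729 genes in the count tables: *Arhgef15*, *Ring1*, *Rad23b*, *Cdkn1b*, *Tsc2*, *Trp53* and *Mcm7*. Each symbol matched 1 row, and all 7 genes passed the filter on low counts in every comparison. The lowest count of any of them in a library was 213, for *Arhgef15*.

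Hippocampus and cortex of 5 WT and 5 Ube3aOE pups were compared, all on a C57Bl/6J background and dissected at postnatal day 7. Ube3aOE pups carry 2 additional copies of *Ube3a* with its own regulatory sequence on a bacterial artificial chromosome transgene, on top of the endogenous alleles, and WT pups carry the endogenous alleles only. The labels give no founder line for these pups. The study states that its characterization after the dosage experiments focused on line E. Mice of a line share 1 transgene insertion. Both tissues of a mouse gave 1 poly(A) RNA library each, 20 libraries in all with 14191093 to 16752326 counts on genes. Bulk tissue was used, so fewer cells of a type and less RNA per cell cannot be told apart in any value below.

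The members fall into several roles. *Arhgef15* encodes ephexin-5, a guanine nucleotide exchange factor that activates RhoA below Eph receptors and restrains excitatory synapse formation, and it is also expressed in endothelial cells. *Rad23b* encodes a shuttle receptor that carries ubiquitinated proteins to the proteasome and steadies XPC in nucleotide excision repair. *Ring1* encodes RING1A, a catalytic subunit of Polycomb repressive complex 1. The reported UBE3A target in that complex is the related RING1B, which is encoded by *Rnf2*, so *Rnf2* is described beside *Ring1*. *Cdkn1b* encodes p27, an inhibitor of the cyclin-dependent kinases of G1, and *Tsc2* encodes tuberin, which with TSC1 holds RHEB and mTORC1 in check. *Trp53* encodes p53, which the papillomavirus protein E6 delivers to UBE3A, and *Mcm7* encodes a subunit of the helicase that is loaded on DNA before replication.

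The genes lie on 5 chromosomes of the mouse genome build GRCm38 (GENCODE M21). *Arhgef15* is at chr11:68943155-68957480 on the minus strand and *Trp53* at chr11:69580359-69591873 on the plus strand. *Ring1* (chr17:34020792-34024680) and *Tsc2* (chr17:24595816-24632630) are both on the minus strand. *Rad23b* lies at chr4:55350043-55392237 and *Cdkn1b* at chr6:134920401-134925513, both on the plus strand, and *Mcm7* at chr5:138164583-138172422 on the minus strand. Counts were of reads over exons, which include the UTRs. *Tsc2* shares 693 exon bases (7.20% of its exons) with *Pkd1* on the opposite strand, and *Mcm7* shares 321 (7.25%) with *Ap4m1* and 64 (1.45%) with *Cops6*. The kit marks strand, but the strand setting of the counting was not given in the sources used here. Reads over those bases could thus have been lost or assigned to a neighbour. *Mcm7* also shares 84 exon bases (1.9%) with *Mir25* and 88 (1.99%) with *Mir93* on its own strand. There a strand setting cannot tell the genes apart.

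*Mcm7* is the member whose level differed most between the tissues, so the window around its start is shown. Other genes of its helicase were also higher in hippocampus. RefSeq gives 2 starts for *Mcm7*. The window of the upstream one, 250 bases before the start and 30 from it on (GRCm38.p6, chr5:138171854-138172133, minus strand, 56.1% G or C), reads as below, with capitals on matches to the E2F-type letters TTTNNCGC on either strand. *Trp53*, the member with the next largest tissue difference, follows (chr11:69580109-69580388, plus strand, 53.6% G or C), with capitals on the E-box letters CACGTG.
Mcm7: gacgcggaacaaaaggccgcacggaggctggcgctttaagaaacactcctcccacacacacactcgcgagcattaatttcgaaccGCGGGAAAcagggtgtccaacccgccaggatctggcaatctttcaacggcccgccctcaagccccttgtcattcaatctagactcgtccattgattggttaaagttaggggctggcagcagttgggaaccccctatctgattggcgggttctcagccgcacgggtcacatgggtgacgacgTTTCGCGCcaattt
Trp53: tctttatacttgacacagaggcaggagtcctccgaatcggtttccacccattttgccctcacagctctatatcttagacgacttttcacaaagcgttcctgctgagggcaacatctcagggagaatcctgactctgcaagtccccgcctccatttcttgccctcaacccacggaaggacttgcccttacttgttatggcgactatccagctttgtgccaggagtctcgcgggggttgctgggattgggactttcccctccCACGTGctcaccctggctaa

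The 2 E2F-type matches of *Mcm7* begin 165 bases before the start and 16 after it, and the window of its downstream start holds none. E2F factors are known to drive many genes of DNA replication. Of all 32851 windows of this length in RefSeq, 4.84% hold a match to TTTNNCGC and 0.295% hold 2 or more. Of the 13 other replication licensing genes that have a window, 6 have a match in any of their windows. The shares are of windows and the count is of genes. A gene can have several windows, as *Mcm7* does, which raises a count of genes, so the share and the count cannot be compared directly. The E-box of *Trp53* begins 10 bases after its start, and CACGTG occurs in 6.79% of all windows. Windows were found for 6 of the 7 members, all but *Arhgef15*, and the other 4 hold neither set of letters. A match only says that these letters are in the window.

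The mature sequences of 3 miRNAs lie within the *Mcm7* gene on its own strand, and their seeds (bases 2 to 8, in capitals) are shown because 2 of the 3 share one.
miR-93-5p: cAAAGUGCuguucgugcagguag
miR-106b-5p: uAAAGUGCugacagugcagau
miR-25-3p: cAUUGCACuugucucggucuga

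*Mir25* and *Mir93* had 0 counts in all 20 libraries and *Mir106b* had at most 1. The libraries were made from poly(A) RNA and are not suited to small RNAs. *Mir25* and *Mir93* also share exon bases with *Mcm7* on the same strand, where reads could have been counted for neither gene. The count of *Mcm7* says nothing of these miRNAs.

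Per kilobase of exon, *Rad23b* stood far above the other members. Its mean was 50.5 ± 1.99 CPM per kilobase (SD, *n* = 20 libraries, CPM, counts per 1000000 after TMM normalization), higher than 93.0% of the 14310 genes with a mean of at least 1 CPM. *Tsc2* (13.2 ± 1.13) and *Cdkn1b* (12.7 ± 1.20) came next on the same scale and did not differ beyond their spread. *Trp53* (6.64 ± 1.06), *Ring1* (6.04 ± 0.678) and *Mcm7* (5.26 ± 1.15) followed, and neighbours in this order differed by less than the larger SD of the pair. *Arhgef15* was lowest, at 3.16 ± 0.694 CPM per kilobase, above 35.8% of the genes. *Rnf2* was at 15.8 ± 1.13 against 6.04 for its paralog *Ring1*. These orders depend on the length used: over the longest transcript *Tsc2* was at 20.3 CPM per kilobase while *Cdkn1b* stayed at 12.7, and *Mcm7* (7.85) came before *Ring1* (7.68).

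**Figure D1:**
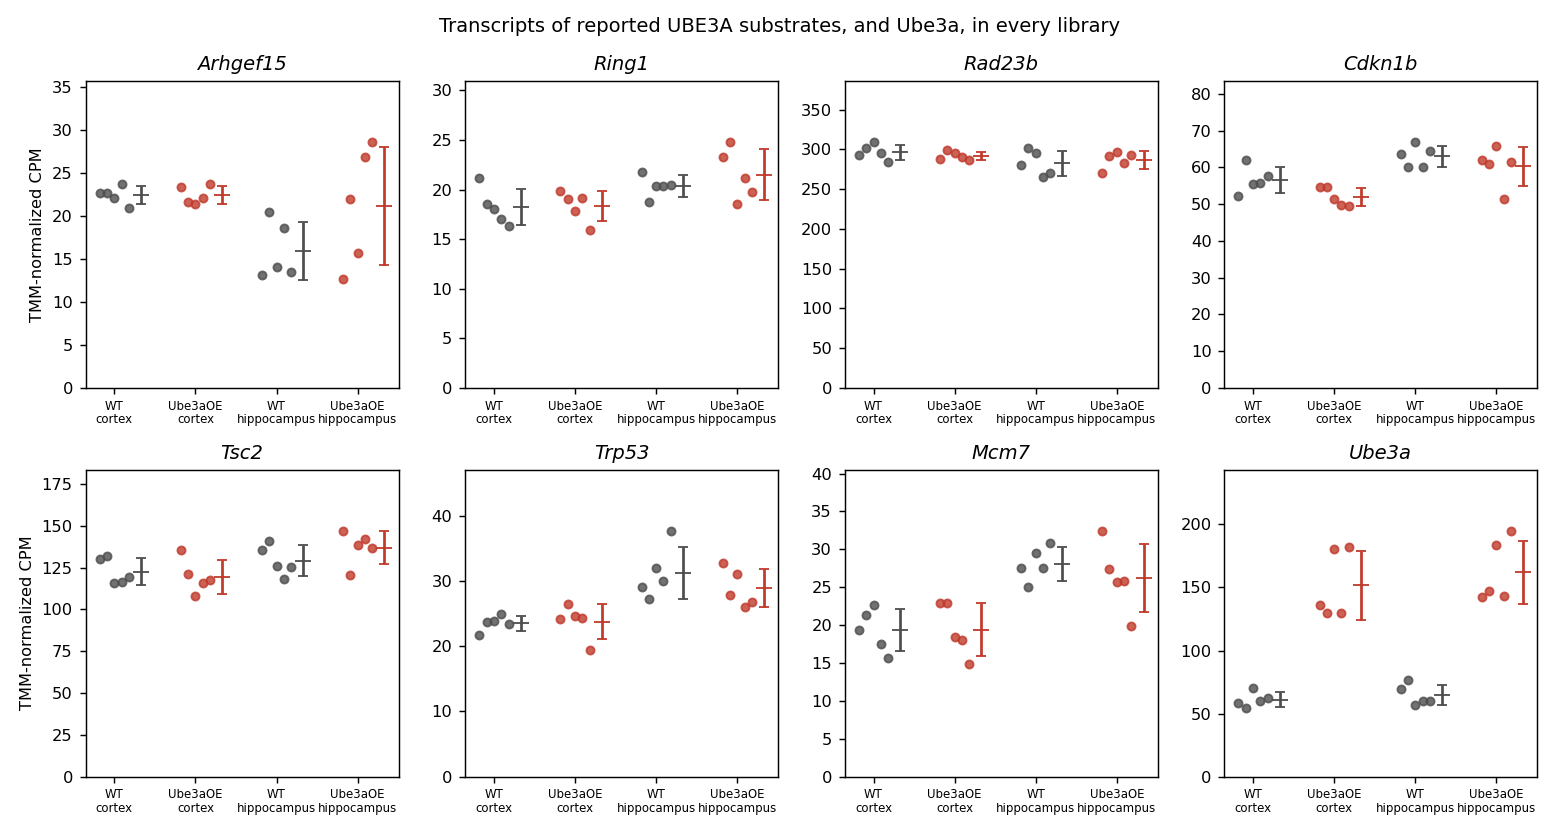
TMM-normalized CPM ( y axes from 0) of the 7 transcripts and of *Ube3a* in the 4 groups, 1 point per library (grey, WT, red, Ube3aOE), with mean and SD beside the points (*n* = 5). *Ube3a* separates the genotypes in both tissues, the 7 transcripts do not, and *Arhgef15* is spread from 12.7 to 28.5 CPM in hippocampus against 20.9 to 23.7 CPM in cortex.

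*Ube3a* itself was measured first, as the check of the genotype labels. In cortex its level was 58.6, 54.4, 70.0, 60.2 and 62.1 CPM in WT mice 1 to 5 and 136, 130, 181, 130 and 182 CPM in Ube3aOE mice 6 to 10. Hippocampus gave 69.5, 76.8, 57.1, 60.2 and 59.9 CPM in WT mice and 142, 147, 183, 143 and 195 CPM in Ube3aOE mice. The genotypes did not overlap in either tissue. Ube3aOE mice had 2.49-fold more in cortex (log2 interval 1.07 to 1.56, adjusted *P* = 0.000822, edgeR quasi-likelihood test). The fold was 2.50 in hippocampus (1.08 to 1.56, adjusted *P* = 0.000441). No read in these tables tells the transgene from the endogenous gene.

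Several libraries stood apart. Counts of sex-linked genes went against the labelled sex in 2 WT mice, 3 and 5, in both tissues, which leaves their genotype label untouched. Mouse 3 is labelled male and had the female pattern, and mouse 5 is labelled female and had the male pattern. An exchange of these 2 mice would keep both in the WT group, and was not tested. In hippocampus, the summed level of 6 choroid plexus markers was 1959 CPM in Ube3aOE mouse 7 and 349 CPM in Ube3aOE mouse 9, against 8.57 to 33.2 CPM in the other 8 libraries. Ube3aOE mouse 9 also had 516 CPM of 6 striatum markers (42.2 to 67.4 in the rest), and WT mouse 2 had 297 CPM of 5 neocortex markers (123 to 189 in the rest). The 5 hippocampus markers were lowest in these last 2 libraries, at 332 and 348 CPM against 469 to 603 CPM. In cortex, Ube3aOE mice 8 and 9 had 161 and 164 CPM of hippocampus markers (50.7 to 87.2 in the rest) and 401 and 456 CPM of neocortex markers (535 to 705 in the rest). Ribosomal RNA rows summed to 48601 CPM in the cortex library of WT mouse 2 and to 26217 CPM in the hippocampus library of Ube3aOE mouse 9, against 4141 to 14044 CPM in the other 18. Counts of genes called, over all genes, the members and the gene lists, were therefore also made without mice 3 and 5, and without mice 2, 7 and 9, the latter and the repeats for the lists chosen after the values were seen.

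Whether the transcripts of reported substrates respond to additional *Ube3a* was asked within each tissue. None of the 7 passed the test in cortex or in hippocampus. Their log2 fold changes (Ube3aOE over WT) ran from -0.12 for *Cdkn1b* to 0.02 for *Trp53* in cortex, and from -0.11 for *Trp53* to 0.40 for *Arhgef15* in hippocampus. The lowest adjusted *P* value was 0.96 in cortex and 0.693 in hippocampus (edgeR). Over all genes the test called 0.00669% of 14947 in cortex and 0.00657% of 15220 in hippocampus, which in each tissue is *Ube3a* alone. No member separated the genotypes without overlap, as 0.676% of all tested genes did in cortex and 1.12% in hippocampus. At an unadjusted *P* value under 0.05, 663 genes passed in cortex and 1098 in hippocampus, and no member was among them. DESeq2 and limma voom likewise called 0 of the 7 in either tissue. The counts were also 0 without mice 3 and 5 and without mice 2, 7 and 9.

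The intervals say which changes the data leave room for. In cortex, the 95% intervals of all 7 transcripts lay between -0.5 and 0.5 on the log2 scale, the border that the study used, as did those of 73.8% of all tested genes. In hippocampus this held for 6 of 7 (69.9% of all genes), with *Arhgef15* as the exception. The median change was 0.01 in cortex and 0.02 in hippocampus, where all tested genes had medians of 0.00 in each. A difference that missed the threshold is not shown to be 0, and small changes within the intervals were not detectable with 5 mice per genotype.

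**Figure D2:**
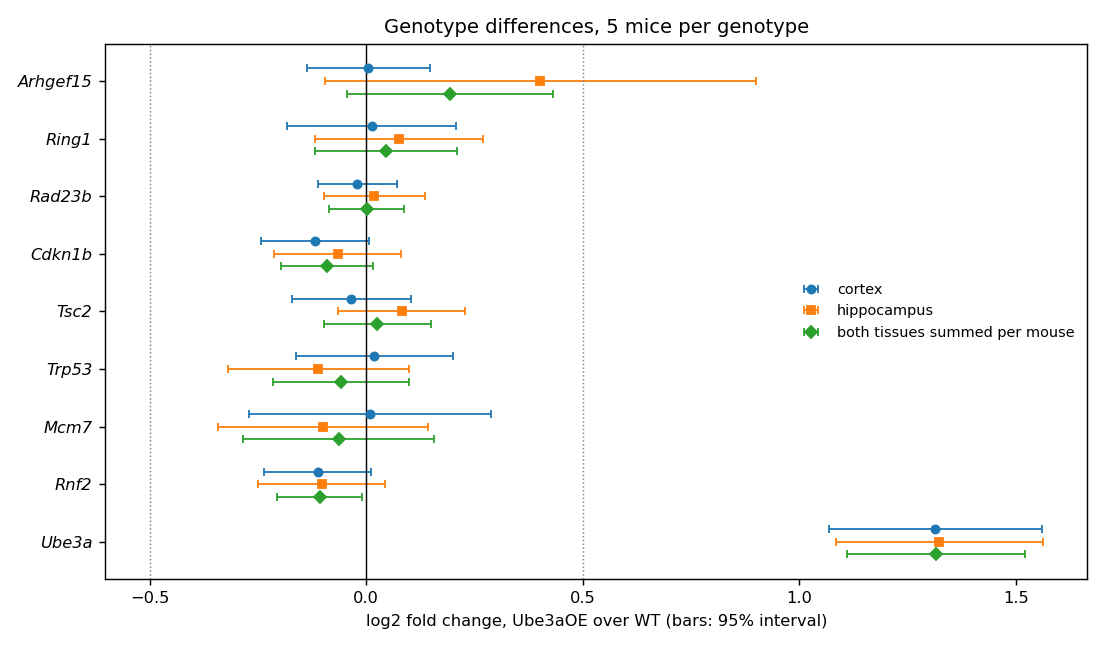
Log2 fold change of Ube3aOE over WT with its 95% interval (x axis) for the 7 transcripts, for *Rnf2* and for *Ube3a*, in cortex, in hippocampus and over both tissues summed per mouse (*n* = 5 mice per genotype); dotted lines mark -0.5 and 0.5. Of the members, only *Arhgef15* in hippocampus has an interval that crosses a dotted line (-0.10 to 0.90), while *Ube3a* sits at 1.31 to 1.32.

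*Rad23b* gave the tightest limits. Its level was 284 to 309 CPM in WT cortex and 286 to 299 CPM in Ube3aOE cortex, and in hippocampus 265 to 301 and 270 to 297 CPM. The genotypes overlapped throughout. The change was -1.42% in cortex (95% interval -7.47% to 5.03%) and 1.32% in hippocampus (-6.51% to 9.82%). With both libraries of a mouse summed, its log2 change was 0.00 (SE 0.04), with an interval of -5.77% to 6.25%.

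*Cdkn1b* had the largest change of the members in cortex. Its level there was 52.2, 62.0, 55.4, 55.7 and 57.8 CPM in WT mice and 54.8, 54.6, 51.5, 49.9 and 49.5 CPM in Ube3aOE mice. WT mouse 1 and Ube3aOE mice 6 and 7 are where the groups overlap. The log2 change was -0.12 (SE 0.06, 95% interval -0.24 to 0.01), with an unadjusted *P* value of 0.061, at rank 827 of 14947 genes, and an adjusted one of 0.96 (edgeR). In hippocampus the level was 60.2 to 66.8 CPM in WT mice and 51.4 to 65.8 CPM in Ube3aOE mice, with a log2 change of -0.07 (SE 0.07, adjusted *P* = 0.794). Ube3aOE mouse 9, one of the libraries that stood apart, was the lowest, and without this mouse the change was -0.00948.

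*Ring1* and *Rnf2*, whose proteins are alternative catalytic subunits of 1 complex, did not pass the test either. *Ring1* ranged from 16.4 to 21.1 CPM in WT cortex and from 15.9 to 19.9 CPM in Ube3aOE cortex, a log2 change of 0.01 (SE 0.09). In hippocampus the ranges were 18.8 to 21.8 and 18.5 to 24.8 CPM, a log2 change of 0.08 (SE 0.09). For *Rnf2* the fitted change was below 0 in each tissue, at -7.45% in cortex (95% interval -15.1% to 0.82%) and -6.88% in hippocampus (-15.9% to 3.06%). With the libraries of a mouse summed, the log2 change of *Rnf2* was -0.11 (SE 0.05), with an unadjusted *P* value of 0.0354 and an adjusted one of 0.791 (edgeR), so it failed the correction over 16334 genes. WT mice had 62.5 to 73.8 CPM of *Rnf2* in cortex and Ube3aOE mice 59.6 to 66.5 CPM.

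*Tsc2* was at 116 to 132 CPM in WT cortex and 108 to 135 CPM in Ube3aOE cortex, and at 118 to 141 and 120 to 147 CPM in hippocampus. Both pairs of ranges overlap almost wholly. Its log2 change was -0.03 (SE 0.06) in cortex and 0.08 (SE 0.07, 95% interval -0.07 to 0.23) in hippocampus. Without mice 2, 7 and 9 the change in hippocampus was 0.16, with an unadjusted *P* value of 0.0387 and an adjusted one of 0.703 (edgeR).

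*Trp53* in cortex was at 21.7, 23.7, 24.0, 24.9 and 23.4 CPM in WT mice and at 24.2, 26.6, 24.6, 24.3 and 19.4 CPM in Ube3aOE mice. Hippocampus gave 27.2 to 37.7 CPM in WT mice, with 4 of the 5 at or below 32.0 CPM, and 32.8, 27.9, 31.1, 26.1 and 26.8 CPM in Ube3aOE mice. The highest value, in WT mouse 5, belongs to a mouse whose sex-linked counts go against its sex label. Its *Ube3a* level was within the WT range, apart from all Ube3aOE mice. The log2 change was 0.02 (SE 0.08) in cortex and -0.11 (SE 0.10) in hippocampus, and the latter was 0.01 without mice 3 and 5.

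*Mcm7* in cortex was at 19.3, 21.4, 22.6, 17.6 and 15.7 CPM in WT mice and at 22.9, 22.9, 18.4, 18.0 and 14.9 CPM in Ube3aOE mice. In hippocampus it was at 27.6, 25.0, 29.5, 27.5 and 30.9 CPM in WT mice and at 32.4, 27.4, 25.7, 25.9 and 19.8 CPM in Ube3aOE mice. The genotypes covered nearly the same range in cortex, the WT values lay within the wider Ube3aOE range in hippocampus, and Ube3aOE mouse 10 was the lowest in both tissues. The log2 change was 0.01 (SE 0.13, 95% interval -0.27 to 0.29) in cortex and -0.10 (SE 0.11, -0.34 to 0.14) in hippocampus, the widest intervals after that of *Arhgef15* in hippocampus. The change in hippocampus was -0.0124 without mouse 10 and -0.18 without mouse 6.

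*Arhgef15* was spread far more widely in hippocampus than in cortex. In cortex it had the smallest spread of the members relative to counting error, at 22.6, 22.7, 22.1, 23.7 and 20.9 CPM in WT mice and 23.3, 21.7, 21.4, 22.03 and 23.7 CPM in Ube3aOE mice. The SD was 4.66% of the mean in WT cortex, below the 5.42% that counting error alone would give. In hippocampus its level was 13.1, 20.5, 14.1, 18.6 and 13.5 CPM in WT mice and 12.7, 21.9, 15.7, 26.8 and 28.5 CPM in Ube3aOE mice. The groups overlap, and both the lowest and the highest of the 10 libraries were Ube3aOE. The SD there was 21.2% of the mean in WT mice and 32.5% in Ube3aOE mice, and the fitted biological coefficient of variation was 24.8% against 7.52% in cortex.

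The log2 change of *Arhgef15* was 0.01 (SE 0.07, 95% interval -0.14 to 0.15) in cortex and 0.40 (SE 0.23, -0.10 to 0.90, adjusted *P* = 0.693, edgeR) in hippocampus. It was 0.36 without mice 2, 7 and 9, and 0.28 without mice 3 and 5. With 1 mouse left out it ranged from 0.27 (without mouse 10) to 0.55 (without mouse 6), with adjusted *P* values from 0.314 to 0.951 and an unadjusted one of 0.0153 without mouse 6. Fitted with all 20 libraries in 1 model, which assumes 1 spread for both tissues, it was 0.41, with an unadjusted *P* value of 0.027 and an adjusted one of 0.457. The difference between the changes of the 2 tissues was tested in that same model, as the interaction of genotype and region. It was 0.40 (95% interval -0.10 to 0.90, adjusted *P* = 0.997, edgeR). The interaction was called for 0% of 15661 genes by edgeR and for 0 by DESeq2 and limma voom, with 590, 740 and 532 genes at an unadjusted *P* value under 0.05, and no member was among those of edgeR.

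Markers of endothelial cells, which also express *Arhgef15*, were set beside it in hippocampus. The 12 markers summed to 165 to 234 CPM in WT mice and 186 to 230 CPM in Ube3aOE mice, none of the 12 was at 0, and the library with the most *Arhgef15*, Ube3aOE mouse 10, had 230 CPM against 224 CPM in Ube3aOE mouse 6, which had the least. Of the 4 libraries above 20 CPM of *Arhgef15*, WT mouse 2 and Ube3aOE mice 7 and 9 are those that stood apart in markers of neighbouring tissue. Ube3aOE mouse 10 did not stand apart in these, with 16.4 CPM of choroid plexus markers, 56.9 CPM of striatum markers, 123 CPM of neocortex markers and 496 CPM of hippocampus markers. Its 8 oligodendrocyte lineage markers, at 628 CPM, were above the 400.0 to 560 CPM of the other 9 hippocampal libraries. The part of these libraries and markers in the spread of *Arhgef15* was not tested.

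**Figure D3:**
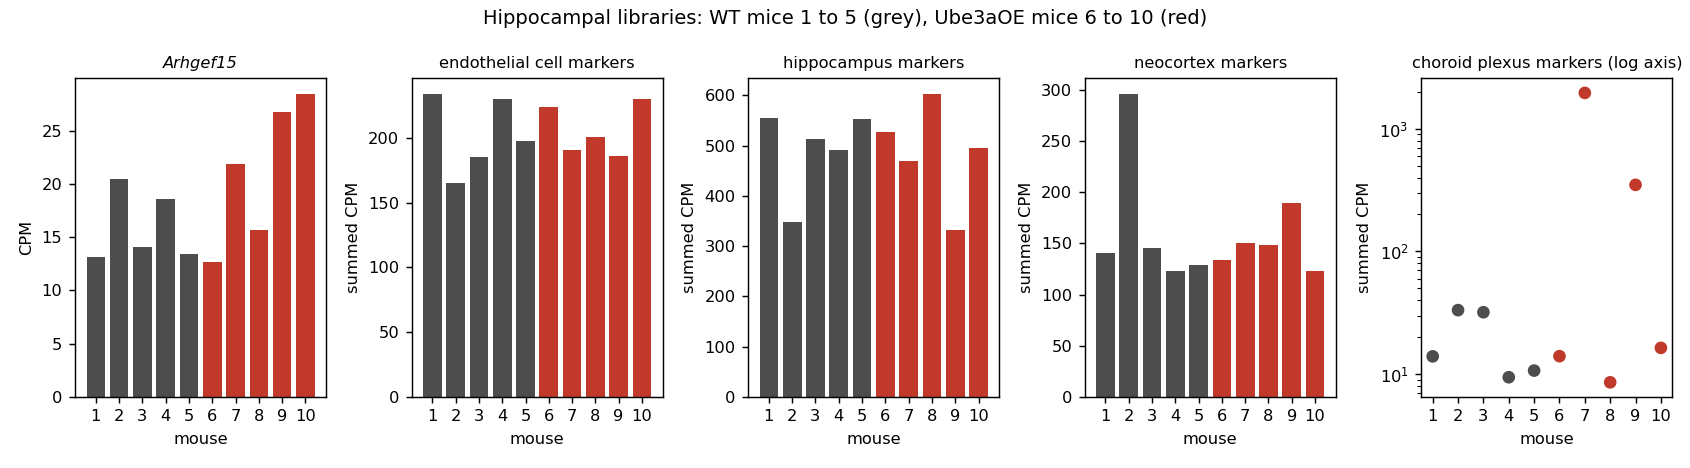
*Arhgef15* (CPM, left) and the summed CPM of 4 marker lists in the 10 hippocampal libraries, by mouse number (grey, WT mice 1 to 5, red, Ube3aOE mice 6 to 10); the choroid plexus axis is logarithmic. *Arhgef15* is highest in mouse 10 (28.5 CPM), where none of the 4 lists drawn stands apart, and endothelial markers stay between 165 and 234 CPM.

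The genes most like *Arhgef15* were sought over the 20 libraries with the 4 group means subtracted from log2 CPM, among 11364 other genes with a mean of at least 5 CPM. These were *Cdh7* (Pearson's r = 0.941), *Adcy7* (0.935) and *Lrrc3b* (0.930). *Cdh7*, a cadherin, had 5.22, 13.4, 4.93, 8.51 and 3.81 CPM in WT hippocampus and 4.23, 15.4, 7.51, 16.1 and 24.3 CPM in Ube3aOE hippocampus. Its 4 highest hippocampal libraries were those of *Arhgef15*, a likeness that follows in part from picking *Cdh7* by r in these libraries. In cortex *Cdh7* lay between 12.7 and 18.9 CPM. All 3 genes were lower in hippocampus than in cortex, with log2 differences of -0.76 for *Cdh7* (SE 0.25), -0.93 for *Adcy7* (SE 0.15) and -0.97 for *Lrrc3b* (SE 0.12), and adjusted *P* values of 0.0186, 4.3e-05 and 1.11e-06 (edgeR). None of the 3 passed the test between genotypes.

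For the other members the closest genes were less alike. They were *March5*, *Bzw1* and *Sms* for *Rad23b* (r = 0.924, 0.919 and 0.884), *Mprip*, *Zc3h4* and *Sptbn4* for *Tsc2* (0.895, 0.870 and 0.849), and *Rce1*, *H2afy* and *Ddx39b* for *Mcm7* (0.875, 0.869 and 0.868). For *Ring1* they were *Mrgbp*, *Cpsf4* and *Idh3g* (0.866, 0.863 and 0.843), for *Cdkn1b* *Cib1*, *Ppp2r3c* and *Mgme1* (0.830, 0.811 and 0.788), and for *Trp53* *Lias*, *Sncaip* and *Arhgap11a* (0.795, 0.788 and 0.767). No gene of this set is another member. These r values are descriptions of 20 libraries from 10 mice that share library quality and were picked as the highest among 11364 genes.

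Summing the 2 libraries of each mouse gave 1 value per mouse. Of 16334 genes, 0.00612% were called, again *Ube3a* alone, and 0 of the 7 members. Their log2 changes ran from -0.09 for *Cdkn1b* (SE 0.05, 95% interval -0.20 to 0.02) to 0.19 for *Arhgef15* (SE 0.11, -0.04 to 0.43), and all 7 intervals lay within 0.5 of 0. The lowest adjusted *P* value was 0.796 (edgeR).

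The pathways around the members were followed in 8 lists that hold 111 genes. Between genotypes, 0 of the 107 tested in cortex and 0 of the 109 tested in hippocampus were called, and 5 and 4 had an unadjusted *P* value under 0.05 (4.67% and 3.67%, against 4.44% and 7.21% of all tested genes). The medians of the lists lay between -0.03 and 0.06 in cortex and between -0.06 and 0.09 in hippocampus. Of the 16 p53 regulators and target genes, 4 had a fitted change above 0 and 12 below 0 in each tissue, with medians of -0.03 and -0.05. Of these 16, 0 had an unadjusted *P* value under 0.05 in either tissue (edgeR). Their signs come from the same mice and are not independent. Of 14 other reported substrates and partners, 7 were above 0 in cortex and 5 in hippocampus, with medians of -0.01 in each. In cortex, 4 of these 14 had an unadjusted *P* value under 0.05, which makes up most of the 5 over all lists, each with an adjusted *P* value of 0.96 (edgeR). Chosen after their values were seen, they were *Peg10* (0.54, SE 0.18), *Pml* (-0.32, SE 0.11), *Kcnn2* (0.20, SE 0.09) and *Psmd4* (-0.11, SE 0.05). In hippocampus *Peg10* was at 0.78 (SE 0.35, adjusted *P* = 0.668). Without mice 3 and 5, and without mice 2, 7 and 9, 3 and 2 of the 14 had such a value in cortex, and 0 genes of any list were called between genotypes.

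The 2 tissues of a mouse differed far more than the genotypes. Over the 20 libraries, *Mcm7*, *Trp53*, *Ring1*, *Cdkn1b* and *Tsc2* were higher in hippocampus than in cortex, 5 of the 7 members. This is to be read against a background of 50.9% of 15661 genes called, 25.3% higher and 25.6% lower in hippocampus (edgeR, adjusted *P* value under 0.05). No member was called lower. None of the 7 separated the tissues without overlap, as 9.27% of all tested genes did. Without mice 3 and 5, 3 of 7 were called, since *Ring1* (0.17, adjusted *P* = 0.082) and *Tsc2* (0.14, adjusted *P* = 0.073) no longer passed. Against the tissue labels, all 5 hippocampus markers were called higher in hippocampus, and 3 of 5 neocortex markers were called lower while the other 2 did not pass.

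**Figure D4:**
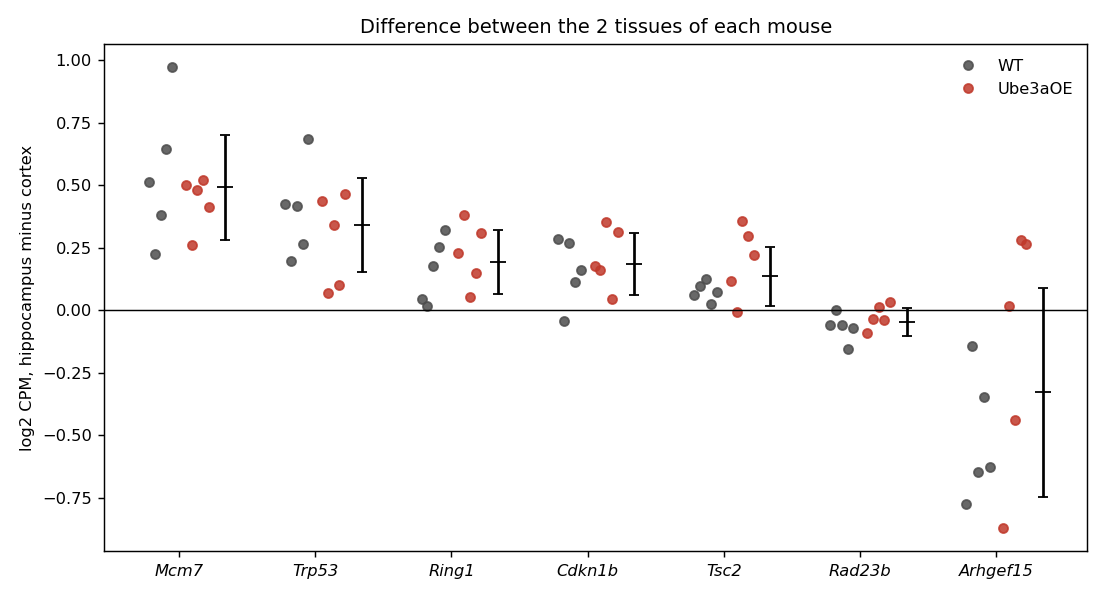
Difference in log2 CPM between the hippocampus and the cortex library of each mouse (y axis, grey, WT mice, red, Ube3aOE mice), with mean and SD over the 10 mice in black. All 10 mice lie above 0 for *Mcm7*, *Trp53* and *Ring1*, and *Arhgef15* runs from -0.87 to 0.28.

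*Mcm7* showed the largest difference of the members, 0.49 on the log2 scale (SE 0.09, adjusted *P* = 0.000119, edgeR). Over both genotypes it was at 14.9 to 22.9 CPM in cortex and 19.8 to 32.4 CPM in hippocampus. It was higher in hippocampus in 10 of 10 mice, by 0.22 (WT mouse 2) to 0.97 (WT mouse 5). *Trp53* followed with 0.34 (SE 0.06, adjusted *P* = 0.000152), also higher in 10 of 10 mice, by 0.07 (Ube3aOE mouse 7) to 0.69 (WT mouse 5). The smallest difference of each gene was in a mouse with a library that stood apart. Other such mice were not small: mouse 9 was at 0.52 for *Mcm7*, and mouse 8 at 0.48 for *Mcm7* and 0.34 for *Trp53*. Without mice 2, 7 and 9 the fitted values were 0.55 for *Mcm7* and 0.44 for *Trp53*. The part of these libraries in the differences was not tested.

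*Ring1* (0.19, SE 0.06, adjusted *P* = 0.0125) was higher in 10 of 10 mice, and *Cdkn1b* (0.19, SE 0.04, adjusted *P* = 0.00139) and *Tsc2* (0.14, SE 0.05, adjusted *P* = 0.0208) in 9 of 10. *Tsc2* missed the threshold when Ube3aOE mouse 8 was left out (adjusted *P* = 0.0579, edgeR). This mouse had the largest difference of *Tsc2* (0.36), and its cortex library stood apart in region markers. *Pkd1*, which overlaps *Tsc2* on the other strand, differed the other way, at -0.16 (SE 0.04, adjusted *P* = 0.00363), and *Ap4m1* and *Cops6*, which overlap *Mcm7*, did not pass the test (-0.06 and -0.04).

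*Rad23b* lay between 284 and 309 CPM in cortex and between 265 and 301 CPM in hippocampus. Its difference was -0.05 (SE 0.03, adjusted *P* = 0.223). *Arhgef15* was lower in hippocampus in 7 of 10 mice, at -0.29 (SE 0.12, 95% interval -0.54 to -0.04), with an adjusted *P* value of 0.0508 (edgeR). This fit assumes 1 spread for both tissues, though *Arhgef15* was spread more widely in hippocampus, and does not pair the libraries of a mouse. With the mouse as a block, which compares the 2 libraries of each animal, *Arhgef15* was called, at -0.32 (adjusted *P* = 0.0269, edgeR). So it was by DESeq2 (0.0488), by limma voom (0.025) and without mice 2, 7 and 9 (-0.42, adjusted *P* = 0.0302, edgeR). The 3 mice in which it was not lower in hippocampus were Ube3aOE mice 7, 9 and 10. *Rnf2* (-0.01, SE 0.04) did not pass.

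Genes of replication licensing, which load the MCM helicase on DNA, were for the most part higher in hippocampus, as *Mcm7* was. Of 15 genes other than *Mcm7*, 10 were called higher and 1 lower in hippocampus, where 25.3% and 25.6% of all tested genes were. Their median was 0.24 against -0.01 over all tested genes. *Cdc6* (1.03, SE 0.23), *Orc1* (0.82, SE 0.24) and *Mcm2* (0.77, SE 0.10) had the largest differences, and *Orc6* was the one called lower (-0.22, SE 0.06). The 5 other subunits of the helicase, *Mcm2* to *Mcm6*, were all called higher, by 0.21 to 0.77. Of 10 markers of dividing cells, 9 were called higher, with a median of 0.60, led by *Cenpf* (1.00), *Ccnb1* (0.98) and *Top2a* (0.97). Without mice 3 and 5, 10 licensing genes were called higher and 1 lower, and without mice 2, 7 and 9 these were 9 and 1, with 8 and 9 of the dividing cell markers called higher. The dividing cell markers summed to 98.0 to 114 CPM in cortex and 123 to 159 CPM in hippocampus without overlap, none was at 0, and their part in the difference of *Mcm7* was not tested.

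**Figure D5:**
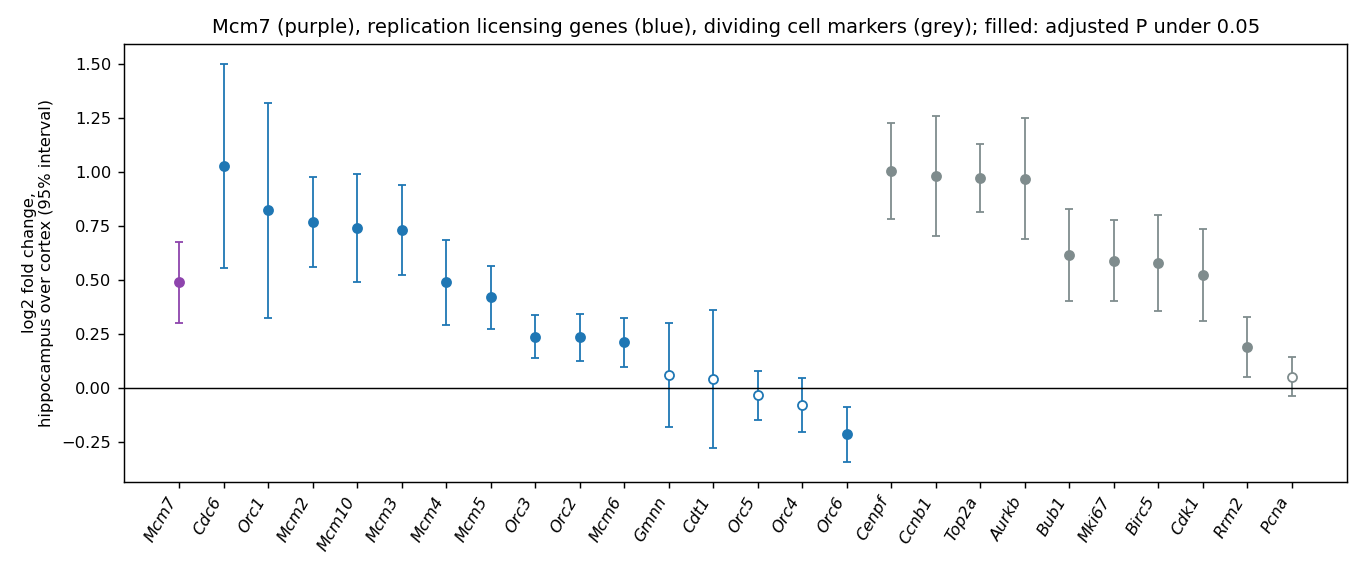
Log2 fold change of hippocampus over cortex with its 95% interval (y axis) for *Mcm7* (purple), the other replication licensing genes (blue) and markers of dividing cells (grey), over 20 libraries; filled points have an adjusted *P* value under 0.05. *Mcm7* at 0.49 lies within the range of the other licensing genes, from -0.22 for *Orc6* to 1.03 for *Cdc6*.

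The lists around the other members were mixed or went the other way. Their counts are to be read against 25.3% of all tested genes called higher and 25.6% called lower in hippocampus. In the TSC and mTORC1 list, 10 of 16 genes were called lower in hippocampus and 3 higher (median -0.14), while *Tsc2* was called higher. The 10 became 6 without mice 3 and 5 and also without mice 2, 7 and 9. *Rheb*, the GTPase that TSC2 acts on, was at -0.19 (SE 0.03) and *Mtor* at -0.24 (SE 0.06), while *Deptor*, an inhibitor of mTOR, was at 0.67 (SE 0.20). *Tsc1*, the partner of *Tsc2*, did not pass (-0.12, adjusted *P* = 0.109). Of 16 p53 regulators and targets, 6 were called higher and 8 lower (median -0.15), among them *Eda2r* (1.49, SE 0.18) and *Trp53inp1* (0.76, SE 0.13) higher and *Pmaip1* (-1.23, SE 0.16) lower. Around *Cdkn1b*, 5 of 15 genes of G1 control were called higher and 1 lower (median 0.07), with *Ccnd2*, a D-type cyclin, at 0.81 (SE 0.07), *Cdk2* at 0.64 (SE 0.10) and *Cdkn2c* at 0.57 (SE 0.11).

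The same shares over all tested genes, 25.3% higher and 25.6% lower, stand beside the counts of the lists that follow. Of 18 other genes of Polycomb repressive complex 1, 5 were called higher and 5 lower (median 0.07), with *Cbx2* at 0.73 (SE 0.14), *Cbx7* at 0.54 (SE 0.11) and *Pcgf2* at -0.46 (SE 0.07). Around *Rad23b*, 3 of 10 genes of ubiquitin shuttling and excision repair were called higher and 2 lower (2 and 1 without mice 3 and 5), with *Xpc* at 0.22 (SE 0.07), *Cetn2*, which binds XPC, at -0.18 (SE 0.05) and *Ubqln4* at -0.15 (SE 0.05). In the ephexin and Eph receptor list, 6 of 11 genes were called higher and 2 lower (median 0.13), 4 and 1 without mice 3 and 5, and 4 and 2 without mice 2, 7 and 9, with *Arhgef16* at 1.95 (SE 0.64), *Ngef* at -1.35 (SE 0.20) and *Arhgef19* at 1.01 (SE 0.13). *Ngef* encodes ephexin-1, and like *Arhgef15* it was fitted lower in hippocampus. Of 14 other reported substrates and partners, 5 were called higher and 5 lower (4 and 3 without mice 3 and 5), among them *Arc*, an immediate early gene of synaptic activity, at 1.14 (SE 0.12), *Kcnn2* at 0.66 (SE 0.07) and *Aldh1a2* at -0.98 (SE 0.39).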

How the data were processed

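RNA of hippocampus and cortex of 5 WT and 5 Ube3aOE mice was sequenced as 20 libraries. Per the labels, the submitters' notes name HISAT2 2.1.0, HTSeq 0.11.2 and the builds GRCm38 and mm10. The authors deposited raw counts per gene, without normalization. The reads not counted on a gene (5 lines per library) were left out, and 69.7% to 81.2% of reads were on genes. Identifiers were matched to GENCODE M21 (47310 of 47729). Genotypes, tissues and mouse numbers came from the labels, which do not say whether pups shared a litter. Counts were fitted with edgeR 4.0.16 in R 4.3.3 (TMM, filterByExpr, robust quasi-likelihood, Benjamini-Hochberg over all genes kept, called at 0.05). The fits were tested on simulated data. SEs and 95% intervals came from the F statistic. Log2 CPM used a prior count of 2. Replicates were compared before averaging, and no pair agreed within sampling noise (chi-square per gene at least 4.78). Deviations of the 2 libraries of a mouse had a median r of 0.215, above 0.1 in 9 of 10 mice and -0.0367 in mouse 4. Libraries of different mice were not compared in this way, so the pairing by mouse number rests on the labels. Alternatives were DESeq2 1.42.0, limma voom 3.58.1, RLE and upper quartile factors, no filter, labelled sex, other fits, the mouse as a block, and mice left out. Named genes are the members, *Ube3a*, *Rnf2*, the 3 genes most like each member, overlapping genes, up to 3 called genes of each list, and markers. *Orc6*, *Mcm3* to *Mcm6*, *Tsc1*, *Rheb* and *Mtor* fall outside this rule and were chosen after their values were seen. The members and lists were chosen with earlier results of these data known. Sequences are from RefSeq (GRCm38.p6). 1 other gene is not reported here. Protein levels were not measured.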

Additional observations from a re-analysis of the deposited data

How the results depend on the processing

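The 28 genotype results of the members (7 genes in 4 comparisons) had 532 alternative values, 1 per result and alternative. Each fit gave values for all 7 genes, and the fits share most mice, so these values are not independent. Called among them were 0, with a lowest adjusted *P* value of 0.314 (edgeR). The alternatives moved fitted changes near 0 to either side without a call. Genes called between genotypes rose from 1 to 5 in cortex and from 1 to 9 over both tissues with DESeq2, and from 1 to 2 in hippocampus with labelled sex as a covariate. The cause was not tested. The labelled sex goes against the sex-linked counts of WT mice 3 and 5, so fits with it are not a full adjustment for sex. With the mouse as a replicate block, 8737 genes and 6 members were called between tissues and 0 genes in the interaction. The block made *Arhgef15* pass between tissues and changed no other call of a member. Members called between tissues numbered 3 without mice 3 and 5, and 4 (without mouse 8) to 6 (without mouse 2, 9 or 10) with 1 mouse left out, and genes called then numbered 7284 to 7980.

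Signs changed, always without a call, as follows. Without mice 3 and 5, the log2 change was -0.0345 for *Arhgef15* and -0.042 for *Ring1* in cortex, 0.00725 for *Trp53* in hippocampus, -0.00668 for *Tsc2* and 0.0102 for *Trp53* over both tissues, and -0.156 for *Ube3a* in the interaction. With labelled sex it was -0.00198 for *Ring1* and -0.0244 for *Mcm7* in cortex and -0.00657 for *Rad23b* over both tissues. *Rad23b* over both tissues was also -0.00125 with DESeq2, -0.000538 with RLE factors, -0.00339 with upper quartile factors, -0.00304 without a filter and -0.00108 with 20 separate libraries. Upper quartile factors gave 0.0175 for *Rnf2* between tissues. Without mice 2, 7 and 9, an alternative chosen after seeing the data, cortex gave -0.0199 for *Ring1*, 0.00153 for *Tsc2*, -0.0464 for *Trp53* and -0.00534 for *Mcm7*, and *Ring1* was -0.0126 in hippocampus, -0.0223 over both tissues and -0.00261 in the interaction.

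With 1 mouse left out, ranges that crossed 0 in cortex were -0.0204 to 0.0268 (*Arhgef15*), -0.0248 to 0.0727 (*Ring1*), -0.022 to 0.0844 (*Trp53*) and -0.0581 to 0.091 (*Mcm7*). In hippocampus *Rad23b* ran from -0.00352 to 0.0482. Over both tissues, *Rad23b* ran from -0.0152 to 0.0175, *Tsc2* from -0.0146 to 0.0584 and *Mcm7* from -0.147 to 0.0188. In the interaction, *Ube3a* ran from -0.0809 to 0.118 and *Rnf2* from -0.0397 to 0.057. Between tissues, *Rnf2* ran from -0.0344 to 0.0156. Of the members, *Arhgef15*, *Ring1*, *Trp53* and *Mcm7* have the fewest counts, 213 to 653 per library, and so the largest counting error. The SD between libraries was above it for *Mcm7* in each group (7.95% to 17.8% of the mean against 4.59% to 5.84%). It was also above it for *Arhgef15* in hippocampus, but not for *Arhgef15* in cortex.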
